A study of Mus musculus with 6 samples.

Results

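The laminins, nidogens, perlecan and agrin are the glycoproteins that build basement membranes together with collagen IV. Here 10 of their genes were followed: the laminin chain genes Lama2, Lama4, Lama5, Lamb1, Lamb2 and Lamc1, the nidogen genes Nid1 and Nid2, Hspg2, which encodes perlecan, and Agrn, which encodes agrin. The genes were listed by name as basement membrane proteins other than collagens, and all 10 were among the 22180 genes measured. The cells were the stromal vascular fraction (SVF), which is what collagenase frees from fat once the floating adipocytes are taken away, of gonadal white adipose tissue (gWAT). One group of wild-type C57Bl/6 mice of 8 weeks received the β3-adrenergic agonist CL316243 (CL) by intraperitoneal injection, at 1 mg per kg in 0.1 ml once a day for 3 days. The other group, of the same strain and age, received vehicle. Total RNA of 3 CL and 3 vehicle samples, numbered as biological replicates, was hybridised to 1 Affymetrix Mouse Gene 2.0 ST array each. The methods of the paper give a longer treatment in general and, for the fractionation, younger female mice, and which of these held for the arrays is not settled by the sources. The labels do not say whether an array held RNA of 1 mouse or of a pool.

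In a basement membrane, laminins are trimers of an α, a β and a γ chain that polymerise into a sheet on the cell surface. Nidogens tie that sheet to the collagen IV network, and perlecan and agrin add heparan sulfate chains that hold growth factors. In fat, such a sheet surrounds every mature adipocyte and underlies the endothelium of the capillaries, with pericytes embedded in it, so several cell types of this fraction can make these proteins.

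The authors derived the log2 levels with RMA, a method that removes background, brings the probes of all arrays to 1 common distribution and combines those of a probe set. Medians over all deposited probe sets were 3.74 to 3.80 on CL arrays and 3.84 to 3.90 on vehicle arrays, and over the genes tested 4.27 to 4.37 on CL arrays and 4.29 to 4.32 on vehicle arrays. Levels of different probe sets cannot be set against each other. Differences were tested gene by gene with limma across all 22180 genes, and the words rose and fell are kept for genes with a Benjamini-Hochberg adjusted p under 0.05. By this rule 44 genes (0.198%) rose and 28 (0.126%) fell. Pearson's r over all probe sets, which are not replicates, was 0.974 to 0.976 among CL arrays, 0.959 to 0.964 among vehicle arrays and 0.951 to 0.965 across the groups. CL replicate 2 and vehicle replicate 2 stood apart in 7 epithelial markers, whose mean log2 level was 7.38 and 6.43 there, against 4.45 and 5.33 on the other CL arrays and 4.66 and 4.79 on the other vehicle arrays. Values without both of these arrays come from a setting chosen after the data were seen. For the gene lists, leaving out only 1 of these arrays was also chosen then. The number of arrays limits the precision.

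All 10 genes had a higher mean with CL, as did 50.4% of all genes, and none of them passed the adjusted threshold. At an unadjusted p under 0.05 from limma, 7 were higher and 0 lower, where 9.40% of all genes were higher and 5.38% lower. They were Lama2, Nid1, Lamb1, Hspg2, Lama4, Lamc1 and Nid2, and the count was 4 with both replicate 2 arrays left out. In these 7, every CL array lay above every vehicle array, which held for 11.2% of all genes (8.72% the other way round). The same 7 passed an unadjusted p under 0.05 by the methods' t-test, as did 7.04% of all genes in this direction. All 10 had a mean above the background level of 3.59. Among the 7987 genes with a mean above that of Lama5, the dimmest of the 10, 5118 had a higher mean with CL. In these 7987 genes, 18.2% were higher at an unadjusted p under 0.05 and 20.9% did not overlap in this direction. The median log2 fold change of the 10 was 0.42, against 0.11 over those 7987 genes and 0.0022 over all genes. Under quantile normalization or cyclic loess the median of the 10 was 0.33, and Lama5 had a lower mean with CL. In RNA of a mixed fraction, more cells of a type and more RNA per cell cannot be told apart.

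**Figure D1:**
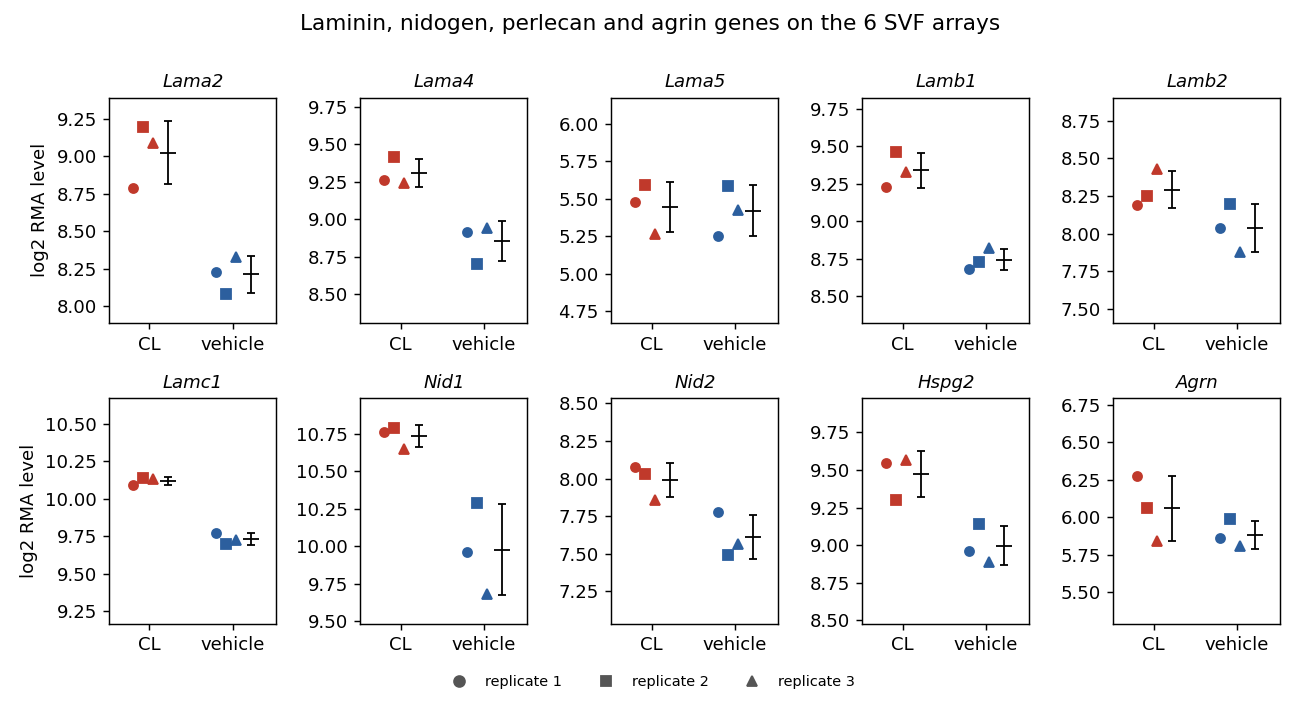
Log2 RMA levels (y axis, each panel spanning 1.5 log2 units) of the 10 genes on the 3 CL arrays (red, left) and the 3 vehicle arrays (blue, right), with the replicate number as the marker shape, and the mean with SD as a bar. The groups do not overlap for 7 genes and overlap for Lama5, Lamb2 and Agrn.

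Of the laminin α chains, which carry the sites for cell surface receptors, Lama2 had the widest gap. This chain is best known from the basement membranes of skeletal muscle and peripheral nerve. Lama2 had log2 levels of 8.79, 9.20 and 9.09 on the CL arrays, against 8.23, 8.09 and 8.33 on the vehicle arrays. All CL arrays were higher, and the lowest of them still stood apart from the highest vehicle array. The group means of Lama2 were 9.02 ± 0.21 with CL and 8.21 ± 0.12 with vehicle (SD, n = 3 each), a 1.76-fold difference. Its log2 fold change was 0.81 (95% interval 0.45 to 1.17, limma), with an unadjusted p of 6.61e-04 and an adjusted p of 0.0771. This gene passed the adjusted threshold when the variance was modelled with the mean level (adjusted p = 0.0415, or 0.0364 with the robust fit), and its adjusted p ranged from 0.0364 to 0.385 over the alternatives that adjust for multiple tests. In skeletal muscle markers, which were looked at because of this chain, 0 of 8 passed an unadjusted p under 0.05, and 3 of the 8 had a mean below background. Their mean log2 level overlapped, at 4.34 to 5.98 with CL and 4.33 to 4.88 with vehicle. The group means of this level differed by 0.39 with all arrays and 0.76 without CL replicate 2. The difference was 0.48 without vehicle replicate 2 and 0.85 without both. Without CL replicate 2 all 8 averaged higher with CL, 2 of them at an unadjusted p under 0.05. Without both arrays 7 averaged higher, again 2 at that level. Among the CL arrays, replicate 2 had the lowest mean level of these markers, 4.34, and the highest Lama2. The log2 fold change of Lama2 was 0.73 without CL replicate 2, 0.75 without vehicle replicate 2 and 0.66 without both. The part of muscle in the Lama2 levels was not tested. For 6 Schwann cell markers, 1 was higher at an unadjusted p under 0.05, and the mean log2 levels of 4.41 to 4.50 with CL lay within the 4.21 to 4.66 with vehicle.

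Lama4 encodes the α chain typical of endothelial basement membranes, and it is also laid down around adipocytes. Its log2 levels were 9.26, 9.42 and 9.24 with CL, against 8.92, 8.70 and 8.94 with vehicle. The groups did not overlap, though the gap between CL replicate 3 and vehicle replicate 3 was small. The log2 fold change of Lama4 was 0.45 (95% interval 0.13 to 0.77, adjusted p = 0.190 from limma), or 1.37-fold. Lama5, whose chain is found under endothelium and most epithelia, showed no such gap. Its log2 levels were 5.48, 5.59 and 5.27 with CL and 5.25, 5.59 and 5.42 with vehicle. The groups overlapped fully, and the highest array of each was replicate 2, the array with the highest epithelial markers in its group. The part of those markers in the Lama5 levels was not tested. For Lama5 the log2 fold change was 0.025 (95% interval -0.33 to 0.38, adjusted p = 0.964), and it was 0.033 without the replicate 2 arrays. The interval leaves room for a change of either sign.

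Among the β and γ chains, which join an α chain in the trimer, Lamb1 and Lamc1 did not overlap between groups. The β1 chain is the common partner in most laminins, while the β2 chain encoded by Lamb2 is known from the neuromuscular junction, the kidney glomerulus and vessel walls. Lamb1 had log2 levels of 9.23, 9.46 and 9.33 with CL, against 8.68, 8.73 and 8.82 with vehicle. The vehicle arrays were close together and all lay well below the CL arrays. The log2 fold change of Lamb1 was 0.59 (95% interval 0.28 to 0.91, adjusted p = 0.106), or 1.51-fold. Lamb2 had log2 levels of 8.19, 8.25 and 8.43 with CL and 8.03, 8.20 and 7.88 with vehicle. Here vehicle replicate 2 reached the lowest CL array, so the groups touched. The log2 fold change of Lamb2 was 0.26 (95% interval -0.08 to 0.59, adjusted p = 0.484). Lamc1, which encodes the γ chain shared by most laminins, had the tightest groups of the 10. Its log2 levels were 10.09, 10.14 and 10.13 with CL, against 9.78, 9.70 and 9.72 with vehicle. The means were 10.12 ± 0.025 with CL and 9.73 ± 0.038 with vehicle (SD, n = 3 each), and the gap was several times the spread within either group. This gave a log2 fold change of 0.39 (95% interval 0.10 to 0.68, adjusted p = 0.212), or 1.31-fold. limma weighs the spread of a gene against that of all genes. The methods' t-test, which does not, gave Lamc1 an unadjusted p of 1.24e-04 and an adjusted p of 0.185.

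The nidogens bind the γ1 chain of laminin and collagen IV, and so link both networks. Nid1 had log2 levels of 10.76, 10.79 and 10.65 with CL, against 9.96, 10.29 and 9.68 with vehicle. The CL arrays were tight, while the vehicle arrays were spread, with replicate 2 nearest to the CL arrays. The means of Nid1 were 10.73 ± 0.07 with CL and 9.98 ± 0.30 with vehicle (SD, n = 3 each), a 1.69-fold difference. Its log2 fold change was 0.76 (95% interval 0.36 to 1.15, adjusted p = 0.108 from limma). A second probe set of Nid1, with a lower mean over all arrays, gave a smaller difference in the same direction. It read 9.83, 10.20 and 10.04 with CL, against 9.53, 9.45 and 9.55 with vehicle, again without overlap. For this probe set the log2 fold change was 0.51 (95% interval 0.18 to 0.85). Nid2, the related nidogen gene, had log2 levels of 8.07, 8.03 and 7.86 with CL and 7.77, 7.49 and 7.56 with vehicle. The groups did not overlap, but CL replicate 3 and vehicle replicate 1 were close. For Nid2 the log2 fold change was 0.38 (95% interval 0.05 to 0.71, adjusted p = 0.278), or 1.30-fold.

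Perlecan and agrin are large proteoglycans of the sheet that bind laminin and carry heparan sulfate. Hspg2 had log2 levels of 9.55, 9.30 and 9.57 with CL, against 8.96, 9.14 and 8.88 with vehicle. The gap was narrowest between the replicate 2 arrays, the lowest with CL and the highest with vehicle. For Hspg2 the log2 fold change was 0.48 (95% interval 0.14 to 0.81, adjusted p = 0.190), or 1.39-fold, and it was 0.64 with both replicate 2 arrays left out. Agrn, known above all for gathering acetylcholine receptors at the neuromuscular junction, had log2 levels of 6.28, 6.06 and 5.84 with CL and 5.86, 5.98 and 5.81 with vehicle. The groups overlapped, since CL replicate 3 lay among the vehicle arrays. The log2 fold change of Agrn was 0.18 (95% interval -0.18 to 0.53, adjusted p = 0.662).

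**Figure D2:**
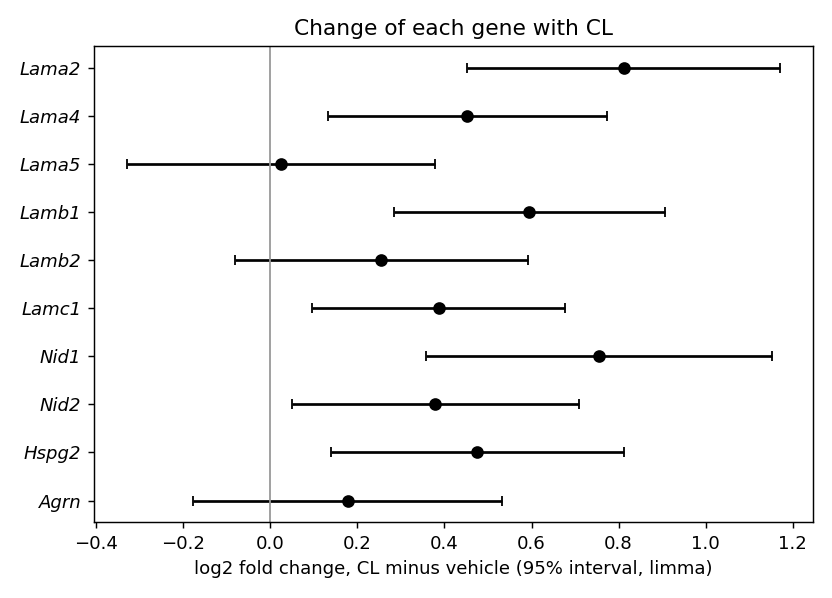
Log2 fold change, CL minus vehicle (x axis), of each of the 10 genes (y axis), with its 95% interval from limma as a bar. The intervals of Lama5, Lamb2 and Agrn include 0, and that of Lama2 runs from 0.45 to 1.17.

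The promoters of 4 of these genes are shown to set the stretch before the start of genes with a gap (Nid1, Lamb1 and Hspg2) beside that of Lama5, which had the smallest difference. RefSeq promoters of GRCm38.p6 were matched for 7 of the 10 genes, with a second start for Agrn. The lines below give, 5′ to 3′ on the strand of the gene, only bases ahead of the outermost annotated start, and capitals mark the GC box GGGCGG on either strand. The Nid1 stretch is chr13:13437352-13437601 (plus strand), that of Lamb1 chr12:31265043-31265145 (plus), that of Hspg2 chr4:137468553-137468750 (plus) and that of Lama5 chr2:180225905-180226109 (minus).
Nid1: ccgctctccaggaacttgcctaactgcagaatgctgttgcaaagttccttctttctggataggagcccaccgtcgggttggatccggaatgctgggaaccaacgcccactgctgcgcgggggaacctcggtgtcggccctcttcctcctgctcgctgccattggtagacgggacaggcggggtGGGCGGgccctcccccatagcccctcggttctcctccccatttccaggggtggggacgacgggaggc
Lamb1: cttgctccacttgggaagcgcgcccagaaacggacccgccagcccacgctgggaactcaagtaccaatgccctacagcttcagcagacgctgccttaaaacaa
Hspg2: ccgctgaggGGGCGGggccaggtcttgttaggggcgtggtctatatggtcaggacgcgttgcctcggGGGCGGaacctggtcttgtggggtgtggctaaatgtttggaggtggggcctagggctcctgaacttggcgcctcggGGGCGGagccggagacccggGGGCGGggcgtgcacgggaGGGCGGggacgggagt
Lama5: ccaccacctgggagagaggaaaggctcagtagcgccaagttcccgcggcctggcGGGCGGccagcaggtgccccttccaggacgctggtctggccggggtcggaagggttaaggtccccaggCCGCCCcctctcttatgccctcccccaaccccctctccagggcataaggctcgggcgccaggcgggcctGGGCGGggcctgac

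In the 250 bases before the start, GGGCGG was found on either strand, copies that overlap counted, in 6 of the 8 promoters of these genes, against 32.7% of the 32851 promoters of the table. There were 12 copies at 1 start of Agrn and 2 at the other, and 5 for Hspg2. Lama5 had 4, of which 3 lie in its printed stretch, and Lamb1 had 2, both past its printed stretch. Nid1 had 1, and Lama2 and Lamb2 had 0. Only for Nid1 did all 250 bases lie ahead of the outermost annotated start. For Lama2 only 1 base did, and for the Agrn start with 2 copies 0 did. The matches and the G and C share at these 2 starts thus describe bases within the annotated gene. The share of G and C was 60.8 to 83.6% in the 6 promoters with a copy, against a median of 52.4% over all promoters. It was 47.2% for Lama2 and 43.6% for Lamb2. Agrn supplied 2 of the 8 promoters. Whether GGGCGG was more frequent than in promoters with a like share of G and C was not tested. TATAAA was in 0 of the 8 (12.4% of all), and CCAAT was in 2, Nid1 and Lamb1 (33.8% of all). The cyclic AMP response element TGACGTCA, looked for because the β3-adrenergic receptor raises cyclic AMP, was in 0 of the 8 (1.55% of all). Its shorter core TGACG was in 1, Lama5 (17.8% of all). These matches describe letters and do not show that a factor binds.

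To ask whether related genes moved by different amounts, the difference of their log2 levels was taken within each array for 5 pairs and compared between groups, where an exact two-sided permutation test cannot give a p under 0.1. Only the change of such a difference has meaning, not its size. For Lama4 minus Lama2 the differences were 0.47, 0.22 and 0.15 with CL, against 0.69, 0.62 and 0.62 with vehicle. All CL arrays were lower, so the log2 fold change of Lama4 was the smaller one on these arrays. The change was -0.36 (95% interval -0.64 to -0.08 from a linear model, exact permutation p = 0.1, adjusted p = 0.167 over 5 pairs). For Lama4 minus Lama5 all CL arrays were higher, at 3.79, 3.82 and 3.98 with CL and 3.67, 3.12 and 3.52 with vehicle. Its change of 0.43 had an interval that included 0 (-0.06 to 0.91, exact permutation p = 0.1, adjusted p = 0.167). Hspg2 minus Agrn changed by 0.30 (-0.14 to 0.74), with all CL arrays higher and the same exact permutation p. The changes of Lamb1 minus Lamb2, 0.34 (-0.08 to 0.76, exact permutation p = 0.2), and of Nid1 minus Nid2, 0.38 (-0.22 to 0.97, exact permutation p = 0.4), came from groups that overlapped.

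**Figure D3:**
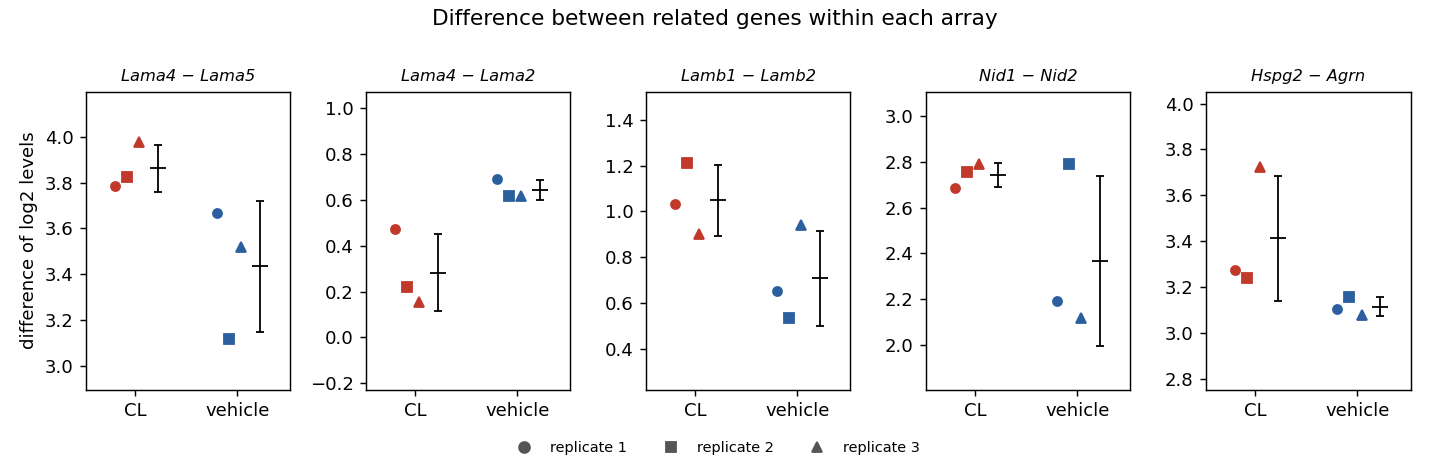
Difference of log2 levels (y axis, each panel spanning 1.3 log2 units) between 2 related genes within each CL array (red, left) and vehicle array (blue, right), with the mean and SD as a bar. The groups do not overlap for Lama4 minus Lama5, Lama4 minus Lama2 and Hspg2 minus Agrn.

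Other laminin chains were compared as well. Of 4 measured (Lama1, Lama3, Lamb3 and Lamc3), 2 had a mean below background and none had an unadjusted p under 0.05, by limma or the methods' t-test. For Lamc3, whose groups overlapped, the log2 fold change was 0.41 (95% interval -0.13 to 0.95, adjusted p = 0.478), close to the median of the 10 genes. For Lama3 it was 0.094 (adjusted p = 0.890), for Lamb3 -0.30 (adjusted p = 0.439) and for Lama1 -0.21 (adjusted p = 0.597). The last 2 are the genes below background, so their differences are not well measured.

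Of 8 basement membrane collagen genes, 1 rose and 7 did not pass, with a median log2 fold change of 0.14. Col15a1, a collagen that anchors basement membranes to the matrix around them, rose with CL. Its log2 levels were 7.48, 7.26 and 7.15 with CL, against 6.19, 6.09 and 6.37 with vehicle, well apart on every array. The log2 fold change was 1.08 (95% interval 0.73 to 1.42, adjusted p = 0.0323 from limma), or 2.11-fold, but it missed the threshold whichever array was left out (adjusted p 0.0795 to 0.130). Col4a1 and Col4a2 encode the chains of the common collagen IV trimer, to which nidogens bind. Col4a1 had log2 levels of 8.83, 8.37 and 8.51 with CL, against 8.19, 8.32 and 8.11 with vehicle, without overlap but with CL replicate 2 close to vehicle replicate 2. For Col4a1 the log2 fold change was 0.36 (95% interval -0.0034 to 0.73, adjusted p = 0.343), and that of Col4a2 was 0.24 (95% interval -0.16 to 0.64, adjusted p = 0.594).

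Of 17 other proteins of basement membranes, 1 rose and none fell. An unadjusted p under 0.05 was reached by 6, all of them higher. Their median log2 fold change was 0.26. Smoc2, a calcium-binding matrix protein of basement membranes, had log2 levels of 8.01, 8.12 and 8.44 with CL, against 6.97, 6.91 and 7.26 with vehicle. It rose by 1.14 on the log2 scale (95% interval 0.76 to 1.53, adjusted p = 0.0368), or 2.21-fold, but likewise missed the threshold whichever array was left out (adjusted p 0.0863 to 0.154). Both this gene and Col15a1 also missed the threshold under quantile normalization and cyclic loess, with adjusted p of 0.0601 to 0.0685. The fibulins bind laminin and nidogen. Fbln1 was 0.97 higher on the log2 scale (adjusted p = 0.0745) and Fbln2 0.69 higher (adjusted p = 0.103), both without overlap between groups.

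Receptors for these proteins went both ways. Of 17, none passed the adjusted threshold, and limma gave 4 an unadjusted p under 0.05, of which 2 were higher and 2 lower (1 and 0 by the methods' t-test). Over all genes, 9.40% were higher and 5.38% lower by the limma rule. The count lower was 0 without CL replicate 2, without vehicle replicate 2 and without both. In the same settings the count higher was 1, 2 and 1. Sdc1 and Sdc2 encode cell surface proteoglycans with heparan sulfate. On the log2 scale the difference was 0.75 for Sdc1 (adjusted p = 0.109) and 0.64 for Sdc2 (adjusted p = 0.208). Itga1, the α chain of an integrin for collagen IV and laminin, had log2 levels of 7.97, 6.78 and 7.73 with CL, against 8.18, 8.86 and 7.98 with vehicle. All CL arrays were lower, with replicate 2 far below the others, and the log2 fold change was -0.85 (95% interval -1.59 to -0.11, adjusted p = 0.281). Itga6, the α chain of a laminin receptor of endothelium and epithelium, had -0.65 (adjusted p = 0.293), with groups that overlapped. For Dag1, the gene of dystroglycan, the difference on the log2 scale was 0.35 (adjusted p = 0.560), and for Itgb1, that of the β chain shared by these integrins, it was -0.17 (adjusted p = 0.652). Itga6, Dag1 and Itgb1 lay outside the rule for naming genes and were chosen after their values were seen.

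Of 17 enzymes that make or edit heparan sulfate, none passed, and limma gave 3 an unadjusted p under 0.05, all higher (0 by the methods' t-test). By the limma rule 9.40% of all genes were higher, and 18.2% of the 7987 genes with a mean above that of Lama5. The count of 3 was 1 without CL replicate 2, 0 without vehicle replicate 2 and 1 without both. The 3 were B3galt6, which acts on the linker of the chain to its core protein, and Sulf2 and Sulf1, which remove sulfate at the cell surface. The difference on the log2 scale was 0.59 for B3galt6 (adjusted p = 0.260), 0.57 for Sulf2 (adjusted p = 0.289) and 0.41 for Sulf1 (adjusted p = 0.332). For Sulf1 and Sulf2 the groups overlapped. With quantile normalization or cyclic loess 1 of the enzymes was higher and 1 lower by the same unadjusted rule.

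**Figure D4:**
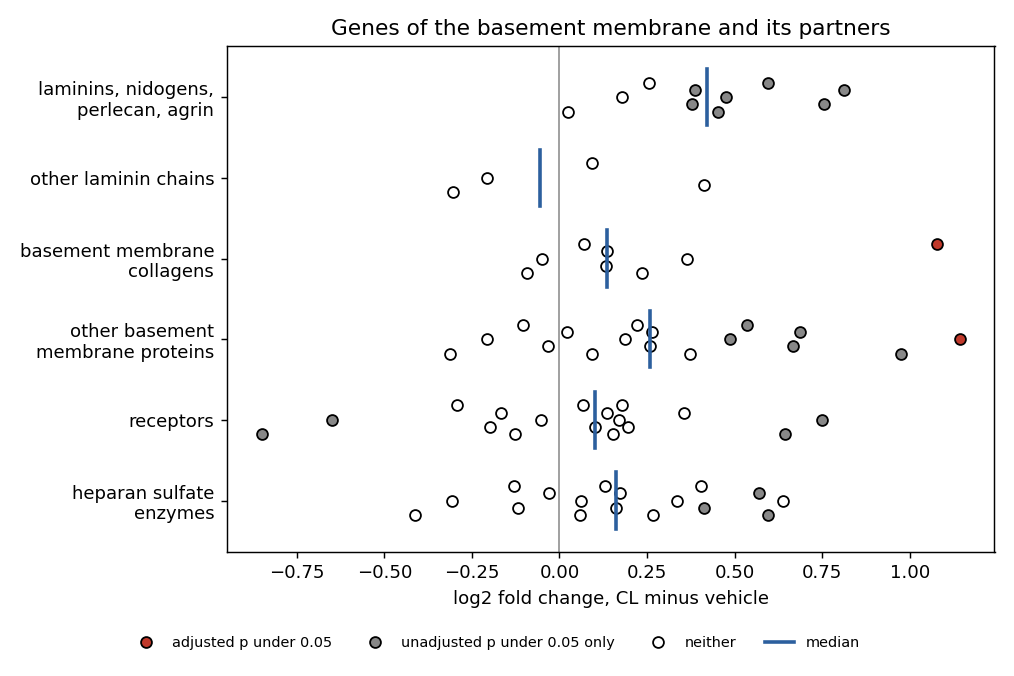
Log2 fold change, CL minus vehicle (x axis), of every measured gene of 6 lists (y axis), with filled red points at an adjusted p under 0.05, grey points at an unadjusted p under 0.05 only, and the list median as a vertical bar. The median of the 10 genes is 0.42, and the 2 red points are Col15a1 and Smoc2.

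Markers of cells that can make these proteins were compared as well. Each of the 15 endothelial markers averaged lower with CL, 9 of them at an unadjusted p under 0.05, and none passed the adjusted threshold (1 of 15 at an unadjusted p under 0.05 by the methods' t-test). Their summed level, as log2, was 12.21 to 13.04 on the CL arrays and 13.16 to 13.62 on the vehicle arrays, with no marker below background. Their mean log2 level overlapped, at 7.66 to 8.54 with CL and 8.51 to 9.10 with vehicle. The difference between the group means of this level was -0.58 with all arrays, -0.33 without CL replicate 2, -0.40 without vehicle replicate 2 and -0.15 without both. The count of 9 was 2 without either of these arrays and 1 without both, when 11 of the 15 averaged lower with CL. Pecam1, the gene of CD31, had log2 levels of 9.61, 8.37 and 9.08 with CL, against 9.60, 10.07 and 9.64 with vehicle. CL replicate 2 was thus the lowest in Pecam1, and in the endothelial list as a whole, while it was the highest CL array in Lama2, Lama4, Lama5, Lamb1, Lamc1 and Nid1. In Hspg2, Col4a1 and Col4a2 it was the lowest CL array.

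Of 12 pericyte and smooth muscle markers, 2 rose, Acta2 (2.31-fold, adjusted p = 0.0291) and Cnn1 (3.87-fold, adjusted p = 0.0203). An unadjusted p under 0.05 was reached by 8 that were higher and by Rgs5, a pericyte gene with a log2 fold change of -0.59 and all CL arrays below all vehicle arrays. Abcc9, another pericyte gene, also averaged lower with CL, by -0.22, with groups that overlapped. The other 10 markers averaged higher. They included Pdgfrb (log2 fold change 0.71) and Kcnj8 (0.38), both without overlap, and Cspg4 (0.43) and Notch3 (0.038), both with overlap. The summed level of the 12 markers, as log2, was 11.87 to 12.44 with CL and 11.61 to 11.76 with vehicle, with no marker below background. Acta2, the gene of smooth muscle actin, missed the threshold whichever array was left out, and Cnn1, that of calponin, did not pass without vehicle replicate 1 or any CL array. Cnn1, Rgs5, Abcc9, Pdgfrb, Kcnj8, Cspg4 and Notch3 were named after their values were seen. Of 12 progenitor and fibroblast markers, 5 had an unadjusted p under 0.05, all higher, and none passed the adjusted threshold. The count of 5 was 2 without either replicate 2 array and 1 without both. Their summed level overlapped, at 13.91 to 14.11 with CL and 13.75 to 13.95 with vehicle, while their mean log2 level did not, at 9.54 to 9.76 with CL and 9.28 to 9.51 with vehicle. Pdgfra, a marker of adipocyte progenitors, had log2 levels of 9.25, 9.63 and 9.63 with CL, against 8.88, 8.96 and 8.47 with vehicle, without overlap (log2 fold change 0.73, adjusted p = 0.132). This was the largest log2 fold change of the progenitor and fibroblast list. In that list 9 markers averaged higher and 3 lower. The 3 were Dpp4 (-0.057), Cd34 (-0.11) and Icam1 (-0.16), with groups that overlapped, and they were named after their values were seen.

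Mature adipocytes, which the fraction should lack, were checked as well. Of 9 adipocyte markers, 5 averaged higher and 4 lower with CL, with a median log2 fold change of 0.0036. An unadjusted p under 0.05 from limma was reached by 4, 3 higher and 1 lower. The summed level, as log2, was 9.48 to 10.92 with CL and 9.65 to 10.24 with vehicle. Adipoq, the gene of adiponectin, had log2 levels of 8.55, 7.72 and 8.36 with CL, against 6.65, 7.09 and 7.16 with vehicle (log2 fold change 1.24, adjusted p = 0.0730). CL replicate 1 held the highest adipocyte level, and among the CL arrays it was also the highest for Nid2 and Agrn. For Lama2, Lamb1, Lamb2 and Lamc1 it was the lowest CL array. Of 8 mesothelial, 10 macrophage and 9 lymphocyte markers, 0 passed an unadjusted p under 0.05. Of 7 mast cell markers, 2 rose, 0 of them without either replicate 2 array, and 5 were higher at an unadjusted p under 0.05, with a summed level, as log2, of 9.45 to 10.78 with CL and 7.72 to 8.46 with vehicle. The part of any of these cells in the levels of the 10 genes was not tested.

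**Figure D5:**
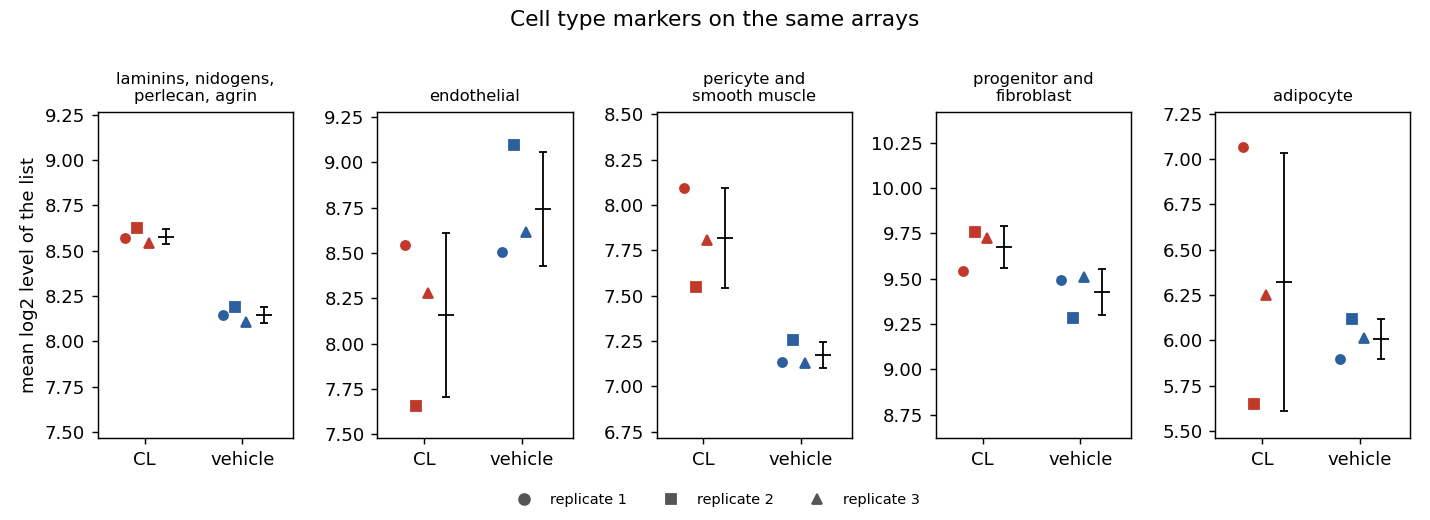
Mean log2 level (y axis, each panel spanning 1.8 log2 units) of the 10 basement membrane genes and of 4 marker lists on the 3 CL arrays (red, left) and the 3 vehicle arrays (blue, right), with the mean and SD as a bar. The mean of the 10 genes varies little within each group, while the endothelial and adipocyte lists spread widely among the CL arrays.

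As a group the 10 genes varied little within a condition. Their mean log2 level was 8.54 to 8.62 on the CL arrays and 8.10 to 8.19 on the vehicle arrays. Such narrow ranges were not limited to them. The 17 other proteins of basement membranes had a mean log2 level of 6.35 to 6.43 with CL and 6.04 to 6.14 with vehicle. A mean also hides the spread of single genes, such as Nid1 with 9.68 to 10.29 on the vehicle arrays. The profile of the 10 over the 6 arrays, each gene centred on its mean, was set against 12526 other genes above background, as a description. The 5 genes most like it were Mxra8, Copz1, Lrpap1, Rad50 and Parva, with a likeness (Pearson's r over 6 arrays, which share the contrast between groups) of 0.993 to 0.997. Mxra8, an adhesion protein of the cell surface, had log2 levels of 10.26, 10.38 and 10.23 with CL, against 9.47, 9.64 and 9.38 with vehicle. Its log2 fold change was 0.79 (adjusted p = 0.0639). Parva encodes parvin α, which links integrins to actin, and was 0.39 higher on the log2 scale (adjusted p = 0.214). Copz1, Lrpap1 and Rad50 had a higher likeness than Parva. Their log2 fold changes were 0.45 (adjusted p = 0.174), 0.77 (adjusted p = 0.0693) and 0.46 (adjusted p = 0.161). Whether the profile picks out genes of adhesion was not tested.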

How the data were processed

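RNA of the SVF of gWAT from 3 CL-treated and 3 vehicle-treated samples, grouped by their titles, was profiled on 6 Mouse Gene 2.0 ST arrays (Affymetrix). The authors deposited log2 levels from RMA in Affymetrix Expression Console, whose version is not given in the sources used here. They were used without further scaling, and RMA can compress fold changes. Of 41345 probe sets, 23521 carry 1 gene symbol in the array annotation. For the 1082 genes with several, the probe set with the highest mean stood for the gene, which left 22180. The background level, 3.59, is the 95th percentile of the means of 1390 olfactory and vomeronasal receptor genes, and 39.8% of genes lay below it.

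Groups were compared with limma 3.58.1 in R 4.3.3 (lmFit and eBayes, two-sided, Benjamini-Hochberg over all genes, threshold 0.05), and pairs of genes with an exact permutation test. The code was tested on simulated data. The 10 genes and the lists were chosen with earlier results of these data known. Genes were named by rule: the 10, the genes past the threshold and the 3 with the smallest p of each list, the 5 most alike other than predicted genes, and a few markers. Alternatives covered the test, filters, scaling, array weights, probe sets, a replicate block and each array left out, and the use of the other Nid1 probe set and the removal of both replicate 2 arrays were added after the data were seen. The sources name no batches, and p-values measure only the spread between these arrays. Some listed genes were not analysed here.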

Additional observations from a re-analysis of the deposited data

How the results depend on the processing

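The 10 genes gave 210 values under 21 alternatives. Of these, 197 kept their direction and their side of the threshold, 9 moved past it and 4 reversed, all 4 of Lama5. Its log2 fold change was -0.079 with quantile normalization, -0.067 with cyclic loess, -0.050 without CL replicate 2 and -0.060 without vehicle replicate 1, and lay between -0.060 and 0.11 with 1 array left out. The 9 were those of Lama2 with either trended variance, and of 7 genes by the methods' t-test without adjustment. The number of genes past the adjusted threshold, 0 of the 10 and 72 of all in limma, was 1 and 153 with the trended variance, 1 and 177 with its robust form, and 7 and 2608 by the methods' t-test without adjustment. With its adjustment no gene passed (0 of all), and 0 passed when every probe set was tested, when more tests were adjusted for, or with both replicate 2 arrays left out. Testing only genes above the median level gave 161 of all. With 1 array left out, 0 to 31 of all genes passed (0 whichever CL array was left out), and 0 of the 10. At an unadjusted p under 0.05 the count of 7 stayed between 6 and 7, except that it was 4 with both replicate 2 arrays left out. The median log2 fold change of the 10 was 0.33 with quantile normalization, 0.33 with cyclic loess, 0.36 without both replicate 2 arrays, and 0.37 to 0.46 with 1 array left out. Deviations from the group means of arrays with the same replicate number correlated with r of -0.0046, 0.098 and 0.060 over genes. None was over 0.1, so the numbers were not taken to pair the arrays, although the replicate 2 arrays, with the highest r of all 9 pairings, were both high in epithelial markers. With the replicate number as a block 15 genes passed, 0 of the 10 among them, and 7 of the 10 had an unadjusted p under 0.05. The differences between related genes kept their direction under all 11 alternatives run for them. Where no cause is named, it was not tested.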
